A study of Homo sapiens with 6 samples.

Results

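The 57 genes described here encode ribosome biogenesis factors and subunits of RNA polymerase I, the enzyme that transcribes the ribosomal RNA precursor. They were taken by gene symbol from a list, and all 57 were found among the 19491 genes of the deposited tables. By role they fall into 4 subunits of RNA polymerase I, 7 proteins of the small nucleolar ribonucleoprotein particles (snoRNPs), 4 nucleolar chromatin and RNA-binding factors, 18 components of the small subunit processome, 6 late small subunit maturation factors and 18 large subunit assembly factors. Their transcripts were measured by total RNA sequencing in PC-3, an established human prostate cancer cell line, in 3 groups. The control cells received no inhibitor, the GPNA group received 1 mM L-γ-glutamyl-p-nitroanilide, and the BenSer group received 10 mM benzylserine, each for 48 h. Both compounds were used as inhibitors of ASCT2 (SLC1A5), a transporter through which cells take up glutamine, and the comparison asks how gene expression differs in their presence. The study proposes that BenSer also has effects apart from ASCT2, as it inhibited the amino acid transporter LAT1 too in oocytes. Neither the cell line nor any allele differs between the groups. The doses of the compounds do, so values of the compounds are set side by side. All cultures are of this 1 line.

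Ribosomes are built in the nucleolus, where RNA polymerase I makes a long precursor that is modified, folded and cut into the mature ribosomal RNAs. Box C/D snoRNPs methylate the precursor and box H/ACA snoRNPs convert uridines to pseudouridine, each guided by a small nucleolar RNA (snoRNA). The small subunit processome assembles on the emerging transcript, and separate sets of factors then mature the small and the large subunit and bring them to the cytoplasm. Genes of this pathway are known as shared targets of MYC, a transcription factor that binds the E-box CACGTG together with its partner MAX, and growing tumour cells express them at high levels.

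The E-box CACGTG, which reads the same on both strands, was looked for in the promoters of the members, taken from RefSeq on GRCh38.p14 as 250 bases before to 50 bases after the first listed start of each gene. Of the 57 members, 49 had a promoter in this table, and 18 of the 49 (36.7%) held CACGTG. It was held by 1024 of 10542 promoters (9.71%) of protein-coding genes named in the deposited tables and by 2030 of all 27305 promoters (7.44%). The related hexamer CACGCG, in either orientation, was found in 14 of the 49 members (28.6%) and in 17.8% of the protein-coding genes, and GGAA, the core of ETS sites, in 98.0% and 95.4%. The median GC content was 63% in the members and 65% in the protein-coding genes. The windows of 30 bases that follow are those of the members given below with their values in every column whose promoter holds the E-box. They are shown to place it relative to the start of each gene and are written 5′ to 3′ on the strand of the gene, with the E-box in capitals.
EBNA1BP2, chr1:43172790-43172819, reverse strand: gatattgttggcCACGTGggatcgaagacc
FBL, chr19:39846356-39846385, reverse strand: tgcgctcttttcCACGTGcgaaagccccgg
LTV1, chr6:143843354-143843383, forward strand: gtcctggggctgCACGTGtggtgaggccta
MRTO4, chr1:19251807-19251836, forward strand: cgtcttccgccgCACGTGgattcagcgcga
NAT10, chr11:34105602-34105631, forward strand: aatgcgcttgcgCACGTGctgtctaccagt
UTP14A, chrX:129905914-129905943, forward strand: accttgggcCACGTGgaaaccaggggccag
UTP18, chr17:51260445-51260474, forward strand: gggagtgctggtCACGTGgcaagaggctgc
UTP18, chr17:51260538-51260567, forward strand: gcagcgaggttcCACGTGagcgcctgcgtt
UTP20, chr12:101280083-101280112, forward strand: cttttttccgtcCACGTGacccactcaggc
WDR43, chr2:28894658-28894687, forward strand: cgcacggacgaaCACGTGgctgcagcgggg
In WDR43, UTP18, FBL, MRTO4 and LTV1 an E-box begins 3, 4, 6, 14 and 28 bases after the start. In UTP20, NAT10 and the other E-box of UTP18 it begins 10, 15 and 89 bases before it, and in EBNA1BP2 and UTP14A 237 and 241 bases before it. A match describes these letters only, and binding was not measured here.

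The values are reads per 1e+06 reads of the library total (CPM), in 2 labelled columns per group. The 6 columns held 23077986 to 32178154 reads, with 51.6% to 52.7% on genes of the tables. Within each group, the spread between both columns hardly exceeded the sampling of reads (chi-square divided by its degrees of freedom 1.06 for control, 1.05 for GPNA and 1.05 for BenSer). The study describes 4 replicates per group, 2 of which the labels name. Because these agree so closely, the labelled columns were counted here as 1 sample per group. No p-value is therefore given for a treatment, and tests that enter the columns as separate samples compare the libraries and stand with the alternatives. Differences are in log2(mean CPM + 1), which understates those of low genes, and the 95% intervals in parentheses are exact Clopper-Pearson intervals that cover counting error only. Epithelial markers were expressed in the control (KRT19 668.5 CPM, EPCAM 97.8 CPM), and all 5 are among the genes of the tables. So are 2 of 4 fibroblast markers (COL1A1 5.57 CPM, COL3A1 0.906 CPM) and 0 of 5 blood and endothelial markers. With BenSer the log2 differences of these epithelial and fibroblast markers ran from -0.27 (COL1A1) to 0.49 (CDH1), and with GPNA from -0.48 (COL1A1) to 0.09 (KRT19). Their part in the members' differences was not tested. In bulk RNA, fewer cells that express a gene and less of its RNA per cell cannot be told apart.

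Every member had enough reads to be compared, from 92 reads in the control columns for PPAN to 27567 for NCL. In the control their levels ranged from 1.99 to 595 CPM, with a median of 40.6 CPM. Per kilobase of annotated exon, NCL had the highest control level at 66.7 CPM and PPAN the lowest at 0.688 CPM, around a median of 8.84 CPM. The 57 members together made up 3460 and 3441 CPM in the control columns, 3048 and 3034 CPM with GPNA, and 2697 and 2663 CPM with BenSer. Their summed level was thus lowest in the BenSer columns and intermediate in the GPNA columns, and the groups did not overlap.

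With BenSer, 56 of the 57 members were lower than in the control, against 55.4% of the 18976 genes compared. The median log2 difference of the members was -0.34 (quartiles -0.40 and -0.26), beside -0.028 for all genes compared. Of the members, 43 were at least 1.2-fold lower, against 15.0% of all genes, and 4 were at least 1.5-fold lower, against 1.58%. These 4 were LTV1, BOP1, GAR1 and FBL. Without BenSer column 1, GAR1 was at -0.57, inside 1.5-fold on the log2(mean CPM + 1) scale, which understates differences of low genes. No member was 1.2-fold higher, as 10.4% of all genes were. With 0.1 in place of 1 added to the CPM, 45 members were at least 1.2-fold lower, against 25.0% of all genes. In all 56 lower members both BenSer columns lay below both control columns, which was so for 37.5% of all genes. For the same 56, the counting interval lay below 0, against 25.8% of all genes. Such shares of all genes, here and below, also depend on read number. Genes were compared from a mean of 5 reads in either group, whereas members had at least 92 reads in the control columns.

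With GPNA, 54 of the 57 members were lower than in the control, against 56.7% of the 18828 genes compared. The median log2 difference was -0.19 (quartiles -0.26 and -0.14), beside -0.028 for all genes. A difference of at least 1.2-fold was found in 15 lower members, against 5.86% of all genes, and of at least 1.5-fold in none, against 0.0637% of all genes. With TMM or DESeq2 size factors in place of the library total, 8 members were past 1.2-fold lower, against 4.13% of all genes with TMM and 4.15% with DESeq2 size factors. No member was 1.2-fold higher, against 5.18%. With 0.1 in place of 1 added to the CPM, the share of all genes at least 1.2-fold lower was 14.7%. The 15 members were counted with 1 added and are not set against this share. Both GPNA columns lay below both control columns in 54 members (34.4% of all genes). The columns overlapped in the other 3, WDR36, UTP14A and UTP18, and the share of all genes with overlapping columns is not given here. In 48 members the counting interval lay below 0, against 20.1% of all genes.

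**Figure D1:**
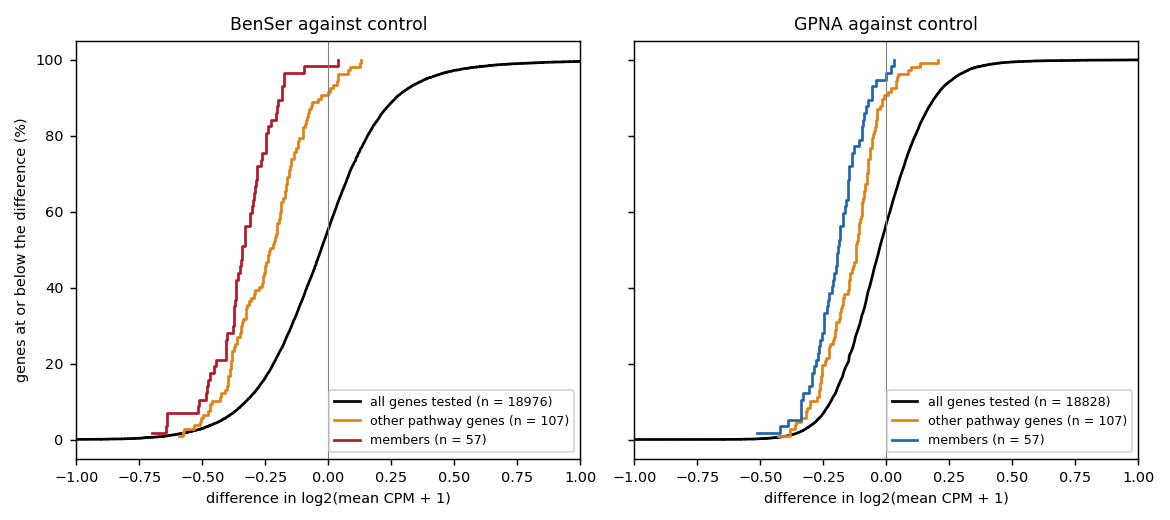
Cumulative share of genes (%, y axis) at or below each difference in log2(mean CPM + 1) (x axis, shown from -1 to 1), with BenSer and with GPNA against the control, for the 57 members, 107 other pathway genes and all genes compared. The members lie to the left of all genes in both panels, with medians of -0.34 against -0.028 with BenSer and -0.19 against -0.028 with GPNA.

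All 4 subunits of RNA polymerase I in the list were lower with either compound, with a median log2 difference of -0.27 with BenSer and -0.23 with GPNA. Of all genes, 55.4% were lower with BenSer and 56.7% with GPNA. POLR1A encodes the largest catalytic subunit (chr2:86247339-86333278, reverse strand, GRCh37, as are the gene positions that follow) and measured 78.1 and 73.7 CPM in the control columns, 65.6 and 64.8 with GPNA and 71.9 and 69.9 with BenSer. It was the only one of the 4 whose BenSer columns lay above its GPNA columns. Its log2 difference was -0.10 (-0.16 to -0.03) with BenSer and -0.22 (-0.28 to -0.15) with GPNA. POLR1B (chr2:113299492-113337395, forward strand), which forms the active site with POLR1A, had 37.2 and 36.4 CPM in the control columns, 31.6 and 34.5 with GPNA and 29.8 and 29.5 with BenSer. The columns of the 3 groups did not overlap, and the log2 difference was -0.30 (-0.39 to -0.21) with BenSer and -0.15 (-0.24 to -0.05) with GPNA. POLR1E (chr9:37485945-37503694, forward strand), a subunit particular to RNA polymerase I, was measured at 17.4 and 16.9 CPM in the control columns, 14.3 and 13.2 with GPNA and 12.5 and 12.8 with BenSer. With BenSer it had the lowest difference of the 4, -0.41 (-0.54 to -0.27), and with GPNA -0.30 (-0.43 to -0.16). POLR1C, which RNA polymerase I shares with RNA polymerase III, measured 16.7 and 16.2 CPM in the control columns, 13.6 and 13.7 with GPNA and 13.1 and 14.5 with BenSer. Its treated columns overlapped each other below the control, with -0.24 with BenSer and -0.25 with GPNA. Exons of POLR1C also overlap 3 genes on the opposite strand, and the strand setting of the counting is not given in the sources used here.

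The snoRNP proteins had the lowest median of the 6 roles with BenSer, -0.48, and a median of -0.19 with GPNA. All 7 were at least 1.2-fold lower with BenSer, and 2 of 7, FBL and NOLC1, with GPNA, against 15.0% and 5.86% of all genes. FBL, the methyltransferase of the box C/D particle (chr19:40325098-40337019, reverse strand), has its E-box 6 bases after the start in the sequence shown above. Its level was 40.1 and 41.1 CPM in the control columns, 30.6 and 29.5 with GPNA and 25.1 and 26.3 with BenSer. The 3 groups did not overlap, and BenSer columns were at 63.3% of the control level and GPNA columns at 74.1%. The log2 difference was -0.64 (-0.73 to -0.55) with BenSer and -0.42 (-0.52 to -0.33) with GPNA. GAR1, a core protein of the box H/ACA particle (chr4:110736666-110745896, forward strand), is expressed at a low level, with 7.02 and 6.80 CPM in the control columns, 5.93 and 5.93 with GPNA and 3.82 and 4.32 with BenSer. BenSer columns were at 58.9% of the control level, the lowest share of any member, and the columns of the 3 groups were separate. From 320 control reads, the log2 difference was -0.64 (-0.84 to -0.44) with BenSer, and the interval with GPNA, -0.19 (-0.39 to 0.01), included 0. DKC1, the pseudouridine synthase of the same particle, was lower by a log2 difference of -0.48 (-0.55 to -0.41) with BenSer and -0.18 (-0.25 to -0.12) with GPNA.

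NOP56 and NOP58 are the scaffold proteins of the box C/D particle, and both genes carry snoRNAs within their own transcript. NOP56 (chr20:2633239-2639039, forward strand) measured 123 and 123 CPM in the control columns, 103 and 107 with GPNA and 97.2 and 93.7 with BenSer. For NOP58 the levels were 83.1 and 82.1 CPM in the control columns, 73.9 and 76.3 with GPNA and 64.5 and 65.3 with BenSer. In each gene the 3 groups were separate, with BenSer lowest. NOP56 had a log2 difference of -0.37 with BenSer and -0.23 with GPNA, and NOP58 of -0.34 and -0.14. NOLC1, a chaperone that binds both kinds of snoRNP in the nucleolus (chr10:103911933-103923628, forward strand), had 114 and 113 CPM in the control columns, 89.5 and 91.3 with GPNA and 82.5 and 80.4 with BenSer. Its differences of -0.48 (-0.53 to -0.42) with BenSer and -0.33 (-0.39 to -0.27) with GPNA were both past 1.2-fold. NHP2, of the H/ACA core, had the smallest difference of the 7 with BenSer, -0.26 (-0.39 to -0.14).

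**Figure D2:**
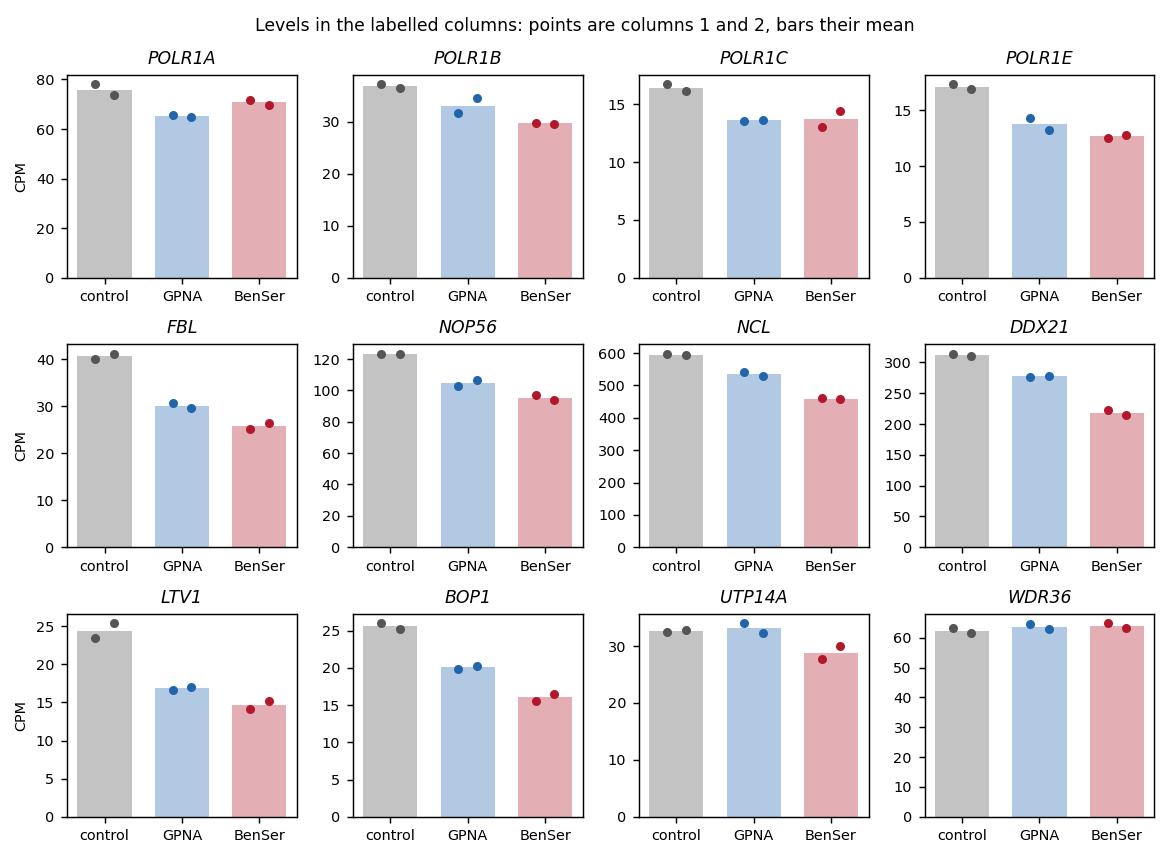
Level in CPM (y axis, from 0) of 12 members in the control, GPNA and BenSer groups (x axis), where points are the labelled columns 1 and 2 and bars their mean. BenSer columns lie below the control in 11 of the 12 genes, among them FBL at 25.1 and 26.3 CPM against 40.1 and 41.1. They lie above it in WDR36.

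The nucleolar chromatin and RNA-binding factors include the members with the most reads. NCL (nucleolin, chr2:232318242-232348352, reverse strand) binds nascent precursor RNA and ribosomal DNA chromatin, and measured 598 and 593 CPM in the control columns, 540.3 and 530.4 with GPNA and 461 and 457 with BenSer. With this depth the counting intervals were narrow, -0.37 (-0.40 to -0.35) with BenSer and -0.15 (-0.18 to -0.13) with GPNA, and the groups were separate. DDX21, an RNA helicase of the nucleolus (chr10:70715891-70744824, forward strand), had 314 and 311 CPM in the control columns, 276 and 279 with GPNA and 222 and 214 with BenSer. It showed the lowest difference of the 4 with BenSer, -0.52 (-0.55 to -0.48), and one of -0.17 (-0.20 to -0.14) with GPNA. NAT10, which acetylates cytidines of the small subunit RNA (chr11:34127164-34169217, forward strand), was measured at 65.7 and 63.96 CPM in the control columns, 52.9 and 49.3 with GPNA and 53.6 and 52.5 with BenSer. Its treated columns overlapped, and the difference was -0.28 (-0.35 to -0.21) with BenSer and -0.34 (-0.41 to -0.26) with GPNA. RRP8, a methyltransferase of the large subunit RNA, measured 15.3 and 14.9 CPM in the control columns, 12.98 and 11.7 with GPNA and 13.5 and 12.9 with BenSer. As for NAT10, the treated columns overlapped, with differences of -0.18 (-0.32 to -0.05) with BenSer and -0.27 (-0.42 to -0.13) with GPNA. The median of the 4 was -0.33 with BenSer and -0.22 with GPNA.

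Among the 18 components of the small subunit processome, 17 were lower with BenSer and 15 with GPNA, against 55.4% and 56.7% of all genes. At least 1.2-fold lower were 14 with BenSer and 2 with GPNA, against 15.0% and 5.86% of all genes. The medians were -0.32 and -0.16. HEATR1, one of the factors that bind first to the precursor (chr1:236712305-236767816, reverse strand), had the lowest BenSer value of the group. Its level was 64.9 and 68.2 CPM in the control columns, 55.7 and 54.7 with GPNA and 48.1 and 48.6 with BenSer, with differences of -0.45 (-0.52 to -0.38) with BenSer and -0.27 (-0.34 to -0.19) with GPNA. The columns of its 3 groups were separate. WDR43, of the same early module, had 118 and 116 CPM in the control columns, 109.8 and 109 with GPNA and 91.6 and 87.7 with BenSer. The difference of -0.38 with BenSer was past 1.2-fold, and that of -0.09 with GPNA was not. UTP20, a large scaffold protein of the processome, measured 93.3 and 91.8 CPM in the control columns, 78.5 and 78.8 with GPNA and 74.7 and 69.3 with BenSer, with -0.36 with BenSer and -0.23 with GPNA. WDR43 and UTP20 both carry an E-box close to the start, in the windows above.

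The 3 members that were not lower with GPNA all belong to the processome. WDR36 (chr5:110428019-110466200, forward strand) measured 63.1 and 61.5 CPM in the control columns, 64.5 and 62.8 with GPNA and 64.9 and 63.2 with BenSer. Its log2 difference was 0.04 (-0.03 to 0.11) with BenSer and 0.03 (-0.04 to 0.10) with GPNA. Although both BenSer columns lay above both control columns, these intervals include 0, and a difference could not be detected from the reads available. UTP14A, a cofactor of the helicase that releases the U3 snoRNA, had 32.5 and 32.9 CPM in the control columns, 33.99 and 32.3 with GPNA and 27.7 and 30.02 with BenSer. Only its BenSer columns were separate from the control, with -0.17 (-0.27 to -0.08), and the GPNA value was 0.02 (-0.08 to 0.12). UTP18 (chr17:49337907-49375297, forward strand), whose promoter holds 2 E-boxes, was measured at 27.1 and 25.5 CPM in the control columns, 26.01 and 26.6 with GPNA and 20.2 and 20.2 with BenSer. GPNA columns lay within the range of the control, with 0.00 (-0.11 to 0.11), and BenSer columns below it, with -0.37 (-0.48 to -0.26). The remaining 12 processome members lay between -0.44 (WDR3) and -0.20 (UTP6) with BenSer and between -0.30 (TBL3) and -0.04 (WDR75) with GPNA.

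All 6 late small subunit factors were lower with either compound, beside 55.4% of all genes with BenSer and 56.7% with GPNA. Their medians were -0.32 with BenSer and -0.24 with GPNA. LTV1, needed for the nuclear export and final maturation of the small subunit (chr6:144164475-144184949, forward strand), had the lowest difference of all 57 members in both comparisons. Its level was 23.5 and 25.4 CPM in the control columns, 16.7 and 17.01 with GPNA and 14.2 and 15.2 with BenSer. Treated columns were thus at 60.0% of the control with BenSer and 68.9% with GPNA, and the 3 groups were separate. In log2 the difference was -0.70 (-0.82 to -0.58) with BenSer and -0.51 (-0.63 to -0.39) with GPNA. Exons of LTV1 overlap those of other protein-coding genes of GENCODE release 44 on its strand. Its level may thus depend on how reads in the overlap were counted. RRP12, which takes part in the export of both subunits (chr10:99116115-99185833, reverse strand), measured 29.7 and 30.6 CPM in the control columns, 21.5 and 24.01 with GPNA and 22.9 and 22.2 with BenSer. The treated columns overlapped, at -0.40 (-0.51 to -0.30) with BenSer and -0.39 (-0.50 to -0.28) with GPNA. TSR1, a factor of the last cytoplasmic steps, had 49.2 and 50.9 CPM in the control columns, 42.4 and 44.7 with GPNA and 41.4 and 40.04 with BenSer, with -0.29 with BenSer and -0.20 with GPNA. NOB1, the endonuclease that makes the end of the small subunit RNA, had -0.35 with BenSer and -0.16 with GPNA, its partner PNO1 -0.25 and -0.16, and BYSL -0.25 and -0.29.

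The 18 large subunit assembly factors were likewise all lower with both compounds, beside 55.4% of all genes with BenSer and 56.7% with GPNA. Of them 13 were at least 1.2-fold lower with BenSer and 5 with GPNA, against 15.0% and 5.86% of all genes. The medians were -0.34 and -0.19. BOP1, PES1 and WDR12 form the PeBoW complex, which is needed to process the large subunit RNA. BOP1 measured 26.00 and 25.2 CPM in the control columns, 19.9 and 20.2 with GPNA and 15.5 and 16.6 with BenSer. Its groups were separate, and its differences of -0.64 (-0.76 to -0.53) with BenSer and -0.34 (-0.45 to -0.22) with GPNA were the lowest of the complex. PES1 had -0.34 with BenSer and -0.14 with GPNA, and WDR12 -0.35 and -0.13. MRTO4, which holds the place of the stalk protein on the early large subunit, had 46.9 and 45.8 CPM in the control columns, 38.4 and 39.3 with GPNA and 31.8 and 32.5 with BenSer. MRTO4 had differences of -0.51 (-0.60 to -0.43) with BenSer and -0.25 (-0.33 to -0.16) with GPNA.

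GNL3 (nucleostemin, chr3:52715172-52728513, forward strand), a nucleolar GTPase abundant in dividing cells, had the most reads of the large subunit factors, with 131.2 and 130.8 CPM in the control columns, 126 and 119.6 with GPNA and 102 and 99.02 with BenSer. Its groups were separate, but the GPNA columns were close to the control, at -0.09 (-0.15 to -0.04), and the BenSer value was -0.38 (-0.43 to -0.32). EBNA1BP2, a nucleolar factor of the large subunit, measured 89.7 and 91.6 CPM in the control columns, 76.4 and 74.2 with GPNA and 64.8 and 65.5 with BenSer. The differences were -0.47 (-0.53 to -0.41) with BenSer and -0.26 (-0.33 to -0.20) with GPNA. RRP1B, a nucleolar and chromatin-bound factor, had 81.2 and 81.7 CPM in the control columns, 66.9 and 70.1 with GPNA and 66.7 and 66.4 with BenSer, and differences of -0.29 with BenSer and -0.25 with GPNA. GRWD1, a histone-binding assembly factor (chr19:48949098-48960279, forward strand), was measured at 23.5 and 23.6 CPM in the control columns, 19.1 and 17.7 with GPNA and 18.1 and 18.9 with BenSer. Its treated columns overlapped, at -0.33 (-0.45 to -0.22) with BenSer and -0.34 (-0.46 to -0.22) with GPNA. As for LTV1, its level may depend on how reads in an overlap were counted, since its exons overlap those of KCNJ14 on the same strand. The other 10 lay between -0.48 (RRS1) and -0.18 (NOP16) with BenSer and between -0.31 (NOP2) and -0.06 (PPAN) with GPNA. PPAN shares exons with the read-through gene PPAN-P2RY11, and its 92 control reads gave the widest interval, -0.29 (-0.56 to -0.02) with BenSer. NOP2, RRS1 and, in the processome, TBL3 also overlap exons of another protein-coding gene on their strand, which makes 6 such members in all, and 17 members overlap one on the opposite strand.

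**Figure D3:**
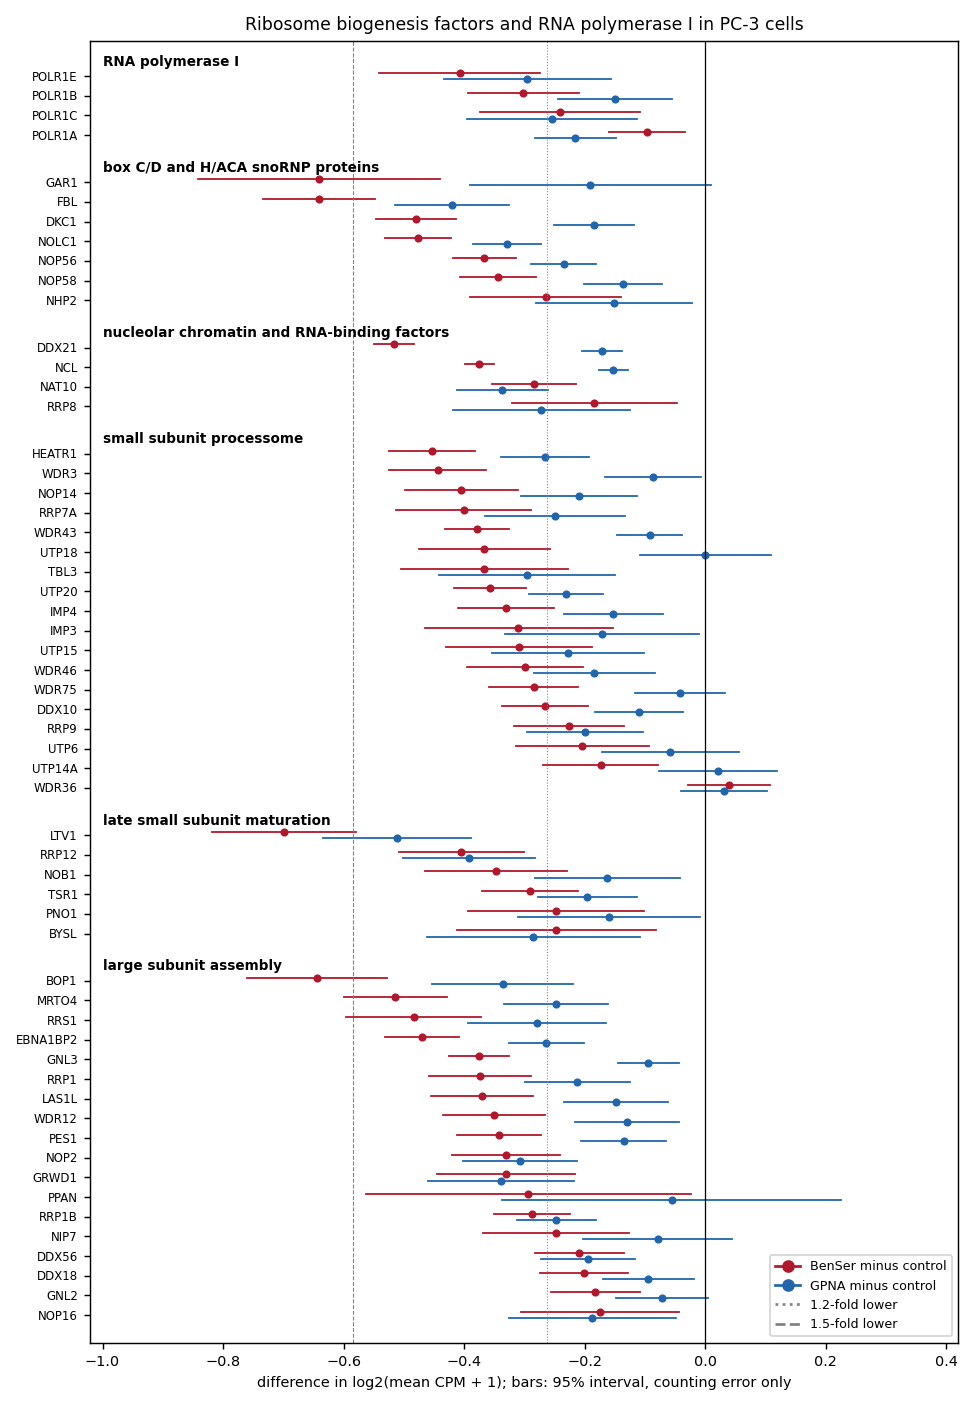
Difference in log2(mean CPM + 1) (x axis) of each of the 57 members (y axis, by role) with BenSer (red) and GPNA (blue) against the control, with 95% counting intervals as bars and lines at 1.2-fold and 1.5-fold lower. All members but WDR36 lie below 0 with BenSer, from -0.70 (LTV1), and all but WDR36, UTP14A and UTP18 with GPNA, from -0.51 (LTV1).

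BenSer and GPNA columns were also set against each other without the control, at doses of 10 mM and 1 mM. In the BenSer columns 49 of 57 members were lower than in the GPNA columns, against 52.1% of 19056 genes compared, with a median log2 difference of -0.15 beside -0.0093 for all genes. At least 1.2-fold lower were 9 members, against 11.0% of all genes, and 0 were 1.2-fold higher, against 10.5%, or 1.5-fold lower, against 0.813%. The share of members past 1.2-fold was thus near that of all genes, whereas the members were concentrated below 0. With 0.1 in place of 1 added to the CPM, the share of all genes at least 1.2-fold lower was 21.9%. The 9 members were counted with 1 added and are not set against this share. Columns were separate and lower with BenSer in 45 members, against 33.6% of all genes, separate and higher in 1 (POLR1A), and overlapped in 11. Shares of all genes whose columns were separate and higher, or overlapped, are not given here. GAR1 had the lowest value, -0.45 (-0.65 to -0.25), followed by UTP18 at -0.37 (-0.47 to -0.26), WDR3 at -0.36 (-0.44 to -0.28) and DDX21 at -0.35 (-0.38 to -0.31). The highest were POLR1A at 0.12 (0.05 to 0.18), RRP8 at 0.09 (-0.05 to 0.23) and NAT10 at 0.05 (-0.02 to 0.13), of which the intervals of RRP8 and NAT10 included 0. By role the medians were -0.21 for snoRNP proteins, -0.19 for large subunit assembly, -0.15 for the processome, -0.09 for late small subunit maturation, -0.08 for the nucleolar factors and -0.05 for RNA polymerase I.

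**Figure D4:**
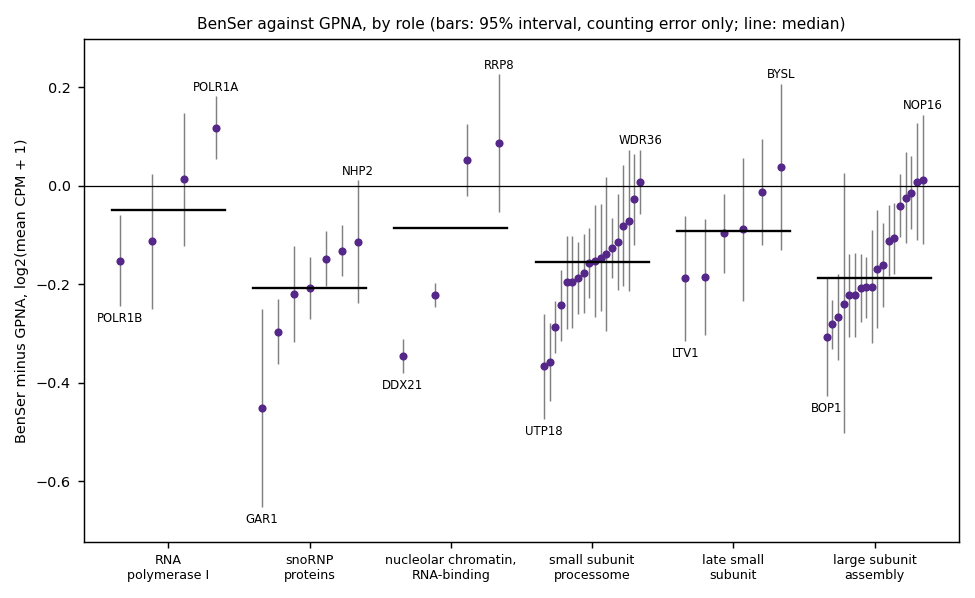
Difference of BenSer minus GPNA in log2(mean CPM + 1) (y axis) for each of the 57 members by role (x axis), with 95% counting intervals as vertical bars and the median of each role as a horizontal line. Values run from -0.45 (GAR1) to 0.12 (POLR1A), and the role medians from -0.21 for snoRNP proteins to -0.05 for RNA polymerase I.

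Other genes of the pathway, none of them among the 57, were described in the same way from a list of 107, all of which were found in the tables. With BenSer 98 of the 107 were lower than in the control and 44 were at least 1.2-fold lower, against 55.4% and 15.0% of all genes, with a median log2 difference of -0.23. With GPNA 97 were lower and 15 at least 1.2-fold lower, against 56.7% and 5.86% of all genes, with a median of -0.12, and none was 1.2-fold higher with either compound. The lowest with BenSer were NPM1 (nucleophosmin), an abundant nucleolar chaperone, and NOL6 and PWP2 of the small subunit processome. NPM1 measured 980.2 and 977 CPM in the control columns, 888 and 878 with GPNA and 648 and 651 with BenSer. It was the only one of the 107 past 1.5-fold, at -0.59 (-0.61 to -0.57) with BenSer and -0.15 (-0.17 to -0.13) with GPNA. NOL6 had 35.3 and 36.1 CPM in the control columns, 26.4 and 26.1 with GPNA and 23.6 and 23.6 with BenSer, with differences of -0.58 with BenSer and -0.43 with GPNA. PWP2 had 36.1 and 35.7 CPM in the control columns, 30.2 and 30.96 with GPNA and 25.02 and 22.7 with BenSer, with -0.57 with BenSer and -0.23 with GPNA. The highest with BenSer were RSL24D1 at 0.13 (0.01 to 0.26) and ZNF622 at 0.12 (0.00 to 0.25), both of the large subunit, and TAF1C, of the RNA polymerase I initiation factor SL1, at 0.09 (-0.09 to 0.26).

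By group, again beside 15.0% of all genes past 1.2-fold lower with BenSer and 5.86% with GPNA, the 12 other RNA polymerase I subunits and initiation factors had a median of -0.13 with BenSer and -0.09 with GPNA, and 4 and 2 of them were at least 1.2-fold lower. The 7 other snoRNP proteins and assembly factors had medians of -0.19 and -0.17, with 3 and 0 past 1.2-fold. Among the 35 other small subunit factors the medians were -0.22 and -0.11, with 13 and 5 past 1.2-fold. For the 41 other large subunit factors they were -0.29 and -0.15, with 21 and 7, and for the 12 subunits and cofactors of the RNA exosome, which trims the precursor, -0.20 and -0.09, with 3 and 1.

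The 18 members whose promoter holds CACGTG had a median log2 difference of -0.34 with BenSer and -0.20 with GPNA. The 31 members with a promoter sequence but no CACGTG had medians of -0.31 and -0.17. Values of the first ranged from -0.70 (LTV1) to -0.17 (UTP14A) with BenSer, and those of the second from -0.64 (GAR1) to 0.04 (WDR36), so both spanned most of the range of the members. Of the 57 members, 9 host an annotated snoRNA between their start and end, among them NOP56, NOP58, NCL, WDR43 and GNL3. Hosts had a median of -0.37 with BenSer and -0.15 with GPNA, and the 48 other members -0.33 and -0.20. Of the hosted snoRNAs, 8 are among the genes of the tables, and each was below 1 CPM in the control, from 11 to 43 reads, so their differences are not read here.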

How the data were processed

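Per the labels, the study and the submitters' processing notes, the authors sequenced TruSeq Stranded Total RNA libraries of PC-3 cells, mapped the reads to hg19 (GRCh37.p13) with TopHat2 and Bowtie2 and counted them per gene with HTSeq 0.6.2p2. The authors divided reads by the library total, so the deposited values are in CPM. Each CPM was a whole number of reads (100% of values, tolerance 0.001 reads), so reads were recovered. Each of 2 tables has 4 value columns per group, of which the labels name columns 1 and 2. The other 8 entries (6 distinct) were not used here, nor were the authors' deposited log2 fold changes, average log2 CPM, p-values and false discovery rates. Columns 1 and 2 were compared by a chi-square test of their reads (genes of 20 or more reads in both together), with p = 1.29e-08 for the control (15623 genes), 3.24e-05 for GPNA (16003 genes) and 9.59e-06 for BenSer (16498 genes). The study describes 4 replicates per group, and replicate experiments in general, but not how the labelled columns relate to separate cultures. Since the chi-square of the labelled columns was close to its degrees of freedom (at most 1.06 times), they were counted as 1 sample.

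The difference in log2(mean CPM + 1) was taken where either group had a mean of 5 or more reads, and called at 1.2-fold and 1.5-fold. Clopper-Pearson intervals (95%) used the merged reads. As alternatives, the columns were entered as 2 samples a group in limma 3.58.1, edgeR 4.0.16 and DESeq2 1.42.0 (R 4.3.3) with Benjamini-Hochberg adjustment, which compares libraries and not treatments, and pseudocounts, filters, scalings, folds and single columns were varied. The computations were tested on simulated data. Gene positions and exon lengths are from GENCODE release 44 lifted to GRCh37. The members and lists were chosen with earlier results of these data known. Members named are the 3 with most control reads in each role (all in a role of 4), the 6 lowest and the 3 highest in each comparison with the control, and the 3 lowest and highest other pathway genes with BenSer. Other members are named where they end a range or complete a complex. Python 3.11.15, numpy 2.4.6, pandas 2.3.3, scipy 1.17.1 and matplotlib 3.10.9 were used.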

Additional observations from a re-analysis of the deposited data

How the results depend on the processing

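The direction of the members' medians held under every alternative run, and no member changed from a call to the opposite direction. With BenSer against the control, the median moved from -0.34 to -0.30 with TMM and -0.30 with DESeq2 size factors and to -0.33 with the total of the listed genes as the scale. Without single columns it was -0.35 to -0.33. With GPNA it moved from -0.19 to -0.20 with a pseudocount of 0.1, to -0.16 with TMM, -0.16 with DESeq2 size factors and -0.16 with the listed total, and ranged from -0.20 to -0.18 without single columns. For BenSer against GPNA it moved from -0.15 to -0.17 with the listed total. With BenSer, the 43 members at least 1.2-fold lower became 35 with TMM, 35 with DESeq2 size factors and 41 with the listed total. With GPNA, the 15 members at least 1.2-fold lower became 8 with TMM, 8 with DESeq2 size factors and 41 at a fold of 1.1. The 9 of BenSer against GPNA became 33 at that fold. The shares of all genes at a fold of 1.1 were not computed. Without single columns the counts at 1.2-fold were 42 to 44 with BenSer, 12 to 14 with GPNA and 7 to 9 for BenSer against GPNA. In the same order, the shares of all genes were then 16.1% to 16.7%, 7.52% to 7.80% and 12.2% to 12.5%. Without BenSer column 1, GAR1 was at -0.57 and no longer 1.5-fold lower on the log2(mean CPM + 1) scale, which left 3 members. At a fold of 2 the count was 0 in all 3 comparisons. The members above 0 with GPNA were UTP14A, UTP18 and WDR36 under every scaling, and lost UTP18 or UTP14A without single columns. With the listed total, 4 in place of 8 members were above 0 for BenSer against GPNA.

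Tests over the columns compare these libraries only. At an adjusted p under 0.05, limma had 55 members lower with BenSer, 43 with GPNA and 35 for BenSer against GPNA. edgeR gave 52, 34 and 35, and DESeq2 42, 17 and 22. Without single columns, limma gave 49 to 52, 31 to 36 and 26 to 28. Over all genes, limma on CPM had 2954 higher and 4139 lower of 18976 with BenSer, 1253 and 2782 of 18828 with GPNA, and 3290 and 3135 of 19056 for BenSer against GPNA. With edgeR and TMM these were 3594 and 3443, 1474 and 1707, and 3497 and 3126, and with DESeq2 2146 and 2021, 558 and 699, and 2003 and 1658. The replicate block left the members' counts at 55, 43 and 35 with limma and 52, 34 and 35 with edgeR. Column numbers are not stated to pair the samples, and the deviations of same-numbered columns had correlations of 0.022, 0.011 and 0.040 over 10199 genes. The depth leaves a median interval half-width of 0.090 with BenSer and 0.095 with GPNA for a member's log2 difference.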
